A study of Capra hircus with 10 samples.

Results

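The carriers of the mitochondrial inner membrane and the machinery that imports proteins into mitochondria were followed in whole ovaries of the Anhui white goat (Capra hircus), 5 in the follicular phase and 5 in the luteal phase. Members were the genes whose symbol starts with SLC25A, TIMM or TOMM followed by a digit, taken among transcripts of the type protein_coding. This gave 65 genes (43 SLC25A, 12 TIMM and 10 TOMM) with 121 transcripts, out of 20587 gene symbols. Each ovary was 1 RNA sequencing library, depleted of ribosomal RNA and prepared with strand information, and expression was given as FPKM, fragment numbers normalised for the length of the transcript and for the size of the library. The ovaries came from a slaughterhouse, no treatment or genotype was named for any of them, and the sources do not give the age of the goats or say that each ovary came from a different goat. The p-values therefore measure only the spread between these samples, which may be technical. Because whole ovaries were sequenced, fewer cells of a type and less RNA per cell cannot be told apart.

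Most carriers of the SLC25 family move metabolites, nucleotides, phosphate, cofactors or metal ions across the inner mitochondrial membrane, which lets little else through. Nearly all mitochondrial proteins are made in the cytosol and enter through the TOM complex of the outer membrane. From there the TIM23 complex and its motor draw precursors with a targeting sequence into the matrix, while the small TIM proteins escort carrier proteins to the TIM22 complex, which inserts them into the inner membrane. Most SLC25 carriers are thus both transporters in their own right and cargo of the TOM, small TIM and TIM22 route. In the ovary, mitochondria of luteal cells hold the cholesterol side-chain cleavage step from which progesterone is made.

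The summed FPKM of the 65 genes ran from 1352 to 1752 in the follicular phase and from 1409 to 1820.5 in the luteal phase, so the phases overlapped. SLC25A3, the phosphate carrier that supplies ATP synthase, was the most abundant member and held 15.5% of this sum over all 10 ovaries, followed by the small TOM subunits TOMM7 with 9.32% and TOMM5 with 8.83%, the ADP/ATP carrier SLC25A5 with 6.15% and the import receptor TOMM20 with 4.89%. The order differed between the phases: mean TOMM5 was above TOMM7 in the luteal phase (184 and 140.3 FPKM) and below SLC25A5 in the follicular phase (93.8 and 100.1 FPKM). At the other end, SLC25A41, SLC25A45, SLC25A47, SLC25A48 and TOMM20L did not reach an FPKM of 0.1 in at least 5 ovaries and were not tested. SLC25A2, SLC25A6, SLC25A18, SLC25A40, SLC25A52, TIMM23, TIMM23B and TIMM29 were not analysed here. The highest mean of the 5 untested genes in either phase was 0.0997 FPKM, for TOMM20L in the luteal phase.

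Markers of several cell types that an ovary can hold moved with the phase. The summed FPKM of corpus luteum markers was 123 to 172 in follicular phase ovaries and 5768 to 7930.3 in luteal phase ovaries, with all 5 tested markers higher. Endothelial markers were higher in 4 of 4 (71.05 to 83.5 and 165 to 213 FPKM), smooth muscle markers were lower in 5 of 5 (1176 to 1486 and 538 to 967), and oocyte markers were lower in 4 of 7 (16.2 to 46.6 and 8.54 to 19.7). Granulosa cell markers were lower in 3 of 6 (203 to 1054 and 91.95 to 639), and 0 of 3 leukocyte markers passed the test in limma, none of them at an unadjusted p under 0.05 (14.2 to 37.6 and 18.5 to 26.6). ALAS2, the red blood cell marker in the table, did not exceed 0.0168 FPKM and was not tested. The part of these cell types in the differences given next was not tested.

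Of the 60 members tested, 20 passed the test between the phases (limma on log2(FPKM + 0.1), Benjamini-Hochberg adjusted p under 0.05 over all genes tested), 12 of them higher and 8 lower in the luteal phase. Over all 15359 genes tested, 43.7% passed, 15.9% higher and 27.8% lower, and the members' counts are given beside this background without a test between them. The median log2 fold change of the members was -0.06, against -0.14 for all genes tested. Among the calls, 60% of members and 36.3% of all genes were higher in the luteal phase. When every ovary was brought to the same median log value, these shares were 66.7% and 48.8%. On a TPM scale the shares were 68.2% and 52.1%. There the filter of 0.1 was applied to TPM, so 62 members and 15969 genes were tested. After quantile normalization the shares were 54.5% and 41.8%. In 12 of the 60 members, 6 in each direction, no luteal phase ovary overlapped the follicular phase range, while 28.4% of all genes did not overlap (11.2% higher and 17.2% lower).

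**Figure D1:**
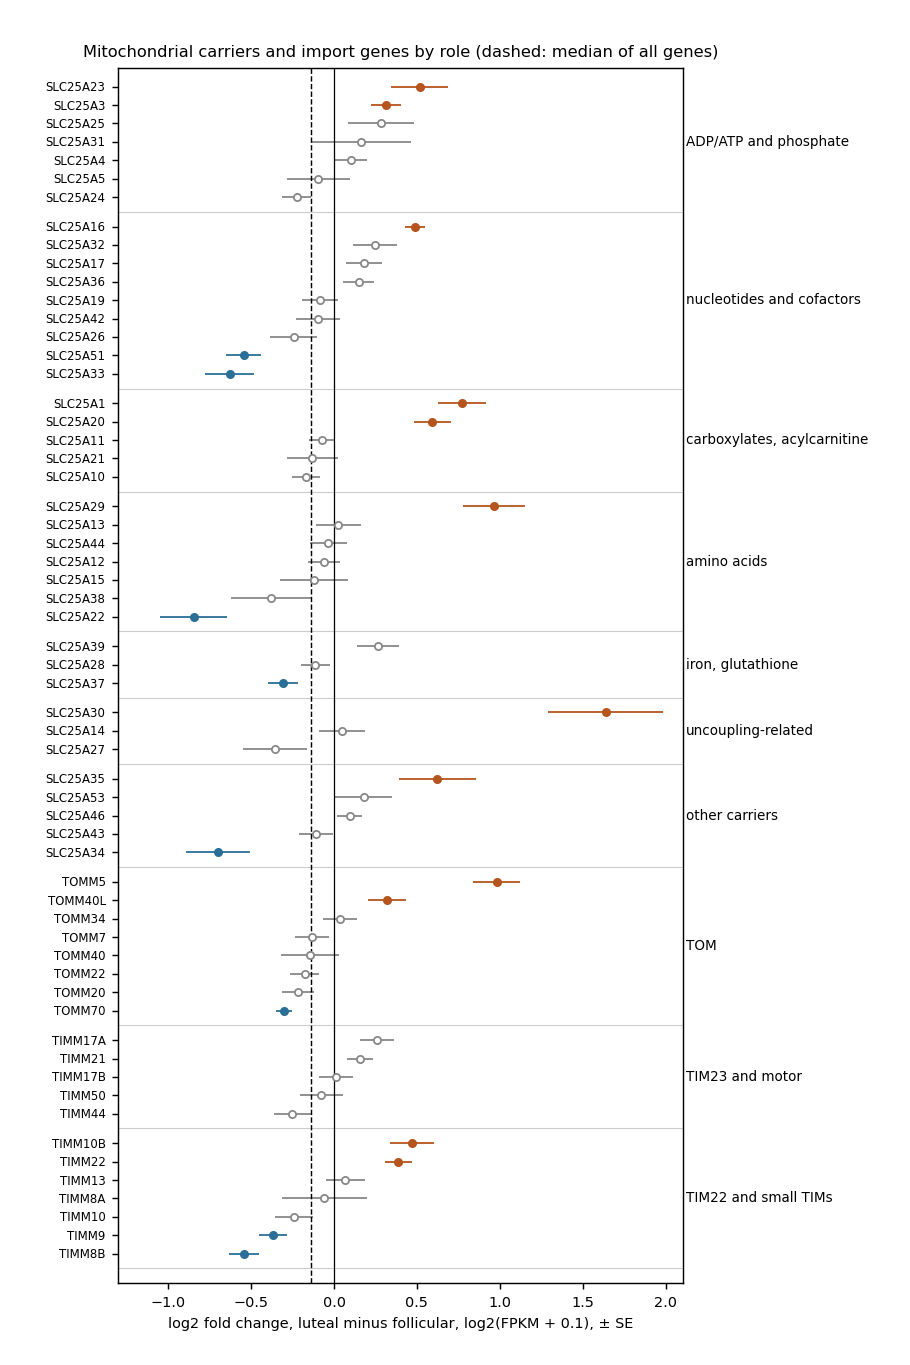
Log2 fold change (luteal minus follicular, on log2(FPKM + 0.1), ± SE, 5 ovaries per phase) of 59 tested members by role, with the median of all genes tested as a dashed line; TOMM6, whose SE of 2.22 would not fit the axis, is left out. Filled orange points are the 12 members higher and filled blue points the 8 members lower at a limma adjusted p under 0.05, and every role except the TIM23 complex and its motor holds at least 1 of them.

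The carriers for ADP, ATP and phosphate had 2 of 7 tested members past the test, both higher. SLC25A3 measured 226, 229, 198, 219.6 and 214 FPKM in follicular phase ovaries 1 to 5 and 296, 296, 226, 290.5 and 249 FPKM in luteal phase ovaries 1 to 5. Luteal phase ovary 3 lay inside the follicular range and the other 4 lay above it (log2 fold change = 0.31 ± 0.09 (SE), limma adjusted p = 0.0160). SLC25A23, a calcium-regulated carrier that exchanges ATP-Mg for phosphate, was low in both phases, at 1.74 ± 0.422 FPKM in the follicular and 2.50 ± 0.354 FPKM in the luteal phase (SD, n = 5 each). Its log2 fold change was 0.52 (limma adjusted p = 0.0313), and the call was lost when follicular phase ovary 2, 4 or 5 or luteal phase ovary 1, 3 or 5 was left out (limma adjusted p between 0.0602 and 0.0666). With its most abundant transcript alone the call was also lost (log2 fold change = 0.29, limma adjusted p = 0.291). The ADP/ATP carriers SLC25A4 and SLC25A5 did not pass, with log2 fold changes of 0.10 (95% confidence interval -0.12 to 0.32, limma adjusted p = 0.426) and -0.09 (95% confidence interval -0.51 to 0.32, limma adjusted p = 0.706). SLC25A5 was the more abundant of the pair in both phases (100.1 and 31.6 FPKM in the follicular phase, 93.5 and 33.9 in the luteal phase). SLC25A31, the ADP/ATP carrier known from germ cells, ranged from 0.0375 to 0.301 FPKM in the follicular and from 0.160 to 0.344 FPKM in the luteal phase.

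Among carriers of nucleotides and cofactors, 1 of 9 was higher and 2 were lower. SLC25A16, which has been linked to coenzyme A in mitochondria, had the smallest adjusted p of the 60 members. It measured 11.8, 12.2, 11.7, 12.1 and 12.8 FPKM in the follicular phase and 16.5, 17.2, 17.3, 17.97 and 16.1 FPKM in the luteal phase, with no overlap (log2 fold change = 0.49 ± 0.06 (SE), limma adjusted p = 0.000137). SLC25A33, a pyrimidine nucleotide carrier, went the other way with 7.95, 13.02, 7.43, 7.92 and 8.43 FPKM in the follicular phase and 6.61, 5.64, 5.20, 5.08 and 5.70 FPKM in the luteal phase (log2 fold change = -0.63 ± 0.15 (SE), limma adjusted p = 0.00575). Follicular phase ovary 2 stood above the others, and the remaining 4 follicular phase ovaries were still all above the highest luteal phase ovary. SLC25A51, the mitochondrial carrier of NAD, was spread in the follicular phase (28.1, 20.7, 30.8, 27.9 and 31.5 FPKM) and nearly constant in the luteal phase (18.95, 18.1, 19.1, 18.8 and 19.1 FPKM). Its log2 fold change was -0.54 (limma adjusted p = 0.00169). SLC25A36, the other pyrimidine nucleotide carrier, was the most abundant of the role at 44.2 ± 2.50 and 49.4 ± 7.14 FPKM (SD, n = 5 each), with a log2 fold change of 0.15 (95% confidence interval -0.05 to 0.35, limma adjusted p = 0.210).

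Carriers of carboxylates and acylcarnitines had 2 of 5 members past the test, both higher. SLC25A20, which exchanges acylcarnitine for carnitine and so brings fatty acids in for oxidation, measured 21.1, 26.1, 19.99, 20.9 and 18.2 FPKM in follicular phase ovaries and 27.3, 32.7, 28.5, 36.4 and 35.4 FPKM in luteal phase ovaries. The phases did not overlap (log2 fold change = 0.59 ± 0.11 (SE), limma adjusted p = 0.00153). SLC25A1, the citrate carrier, whose export of citrate provides acetyl-CoA for fatty acid and sterol synthesis in the cytosol, measured 27.9, 23.1, 23.1, 24.2 and 24.7 FPKM in the follicular and 48.6, 44.3, 27.6, 43.2 and 50.4 FPKM in the luteal phase. Luteal phase ovary 3 fell inside the follicular range and the other 4 were at least 43.2 FPKM (log2 fold change = 0.77 ± 0.15 (SE), limma adjusted p = 0.00164), and without that ovary the log2 fold change was 0.92 (limma adjusted p = 2.08e-05). SLC25A1 was the most abundant of the role over the 10 ovaries. The oxoglutarate carrier SLC25A11 (30.9 ± 3.30 and 29.3 ± 1.35 FPKM, SD, n = 5 each), the dicarboxylate carrier SLC25A10 (14.4 ± 1.66 and 12.7 ± 0.729) and the oxodicarboxylate carrier SLC25A21 (1.14 ± 0.164 and 1.04 ± 0.179) did not pass.

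Of 7 amino acid carriers, 1 was higher and 1 lower. SLC25A29, a carrier of basic amino acids, measured 5.56, 9.05, 6.70, 5.37 and 6.01 FPKM in the follicular phase and 17.7, 15.2, 11.9, 10.4 and 9.68 FPKM in the luteal phase. Every luteal phase ovary was above every follicular phase ovary, with the smallest gap between follicular phase ovary 2 and luteal phase ovary 5 (log2 fold change = 0.97 ± 0.19 (SE), limma adjusted p = 0.00187). SLC25A22, a glutamate carrier, was lower in the luteal phase, at 3.04, 3.11, 2.06, 3.32 and 4.39 FPKM against 6.64, 7.03, 6.28, 4.62 and 4.24 FPKM in the follicular phase (log2 fold change = -0.85 ± 0.20 (SE), limma adjusted p = 0.00612). Here luteal phase ovary 5 lay above follicular phase ovary 5, so the phases overlapped. The aspartate/glutamate carriers SLC25A12 and SLC25A13, parts of the malate-aspartate shuttle, had log2 fold changes of -0.06 (95% confidence interval -0.27 to 0.14, limma adjusted p = 0.622) and 0.03 (95% confidence interval -0.27 to 0.32, limma adjusted p = 0.889).

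The mitoferrin SLC25A37, which carries iron for heme synthesis, was the 1 of 3 tested iron and glutathione carriers to pass, in the lower direction. It measured 16.9, 20.2, 18.6, 15.6 and 15.8 FPKM in the follicular and 15.01, 13.6, 14.2, 12.4 and 14.8 FPKM in the luteal phase, without overlap (log2 fold change = -0.31 ± 0.09 (SE), limma adjusted p = 0.0163). The call was lost with all ovaries brought to the same median (log2 fold change = -0.22, limma adjusted p = 0.0829) and on the TPM scale (-0.21, limma adjusted p = 0.123). SLC25A28, the other mitoferrin, had a log2 fold change of -0.11 (95% confidence interval -0.30 to 0.08, limma adjusted p = 0.307). The log2 fold change of SLC25A39, the glutathione carrier and the most abundant of the role, was 0.27 (95% confidence interval -0.01 to 0.54, limma adjusted p = 0.108). SLC25A39 passed on the TPM scale, with a log2 fold change of 0.37 (limma adjusted p = 0.0309), and without follicular phase ovary 2, with 0.35 (limma adjusted p = 0.0315).

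SLC25A30, a carrier related to the uncoupling proteins, had the largest log2 fold change of all members that passed. It measured 12.3, 5.13, 5.76, 14.1 and 4.69 FPKM in follicular phase ovaries 1 to 5 and 18.02, 40.4, 30.01, 19.6 and 17.04 FPKM in luteal phase ovaries 1 to 5, a ratio of means of 2.99 (log2 fold change = 1.64 ± 0.35 (SE), limma adjusted p = 0.00315). The phases did not overlap, but both were spread widely: follicular phase ovaries 1 and 4 stood above the other 3, and luteal phase ovaries 2 and 3 above the other 3. With its most abundant transcript alone the call was lost (log2 fold change = 2.65, limma adjusted p = 0.0850). Its relative SLC25A14 had a log2 fold change of 0.05 (95% confidence interval -0.25 to 0.35, limma adjusted p = 0.788). For SLC25A27, another relative, it was -0.36 (95% confidence interval -0.78 to 0.06, limma adjusted p = 0.150), and this passed without follicular phase ovary 2 (-0.50, limma adjusted p = 0.0323).

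Among carriers whose substrate is less settled, SLC25A34 was lower, with means of 1.15 FPKM in the follicular and 0.662 FPKM in the luteal phase (log2 fold change = -0.70 ± 0.19 (SE), limma adjusted p = 0.0130). SLC25A35 was higher, with means of 0.106 and 0.220 FPKM (log2 fold change = 0.62 ± 0.23 (SE), limma adjusted p = 0.0483). Both had overlapping phases. SLC25A35 reached 0.1 FPKM in all luteal phase ovaries and in 2 follicular phase ovaries, so it entered the test through the phase in which it is high, and without it 11 members were higher. Its call was lost in 12 of 19 alternatives. Among these were the fits without any 1 ovary other than follicular phase ovary 1 and luteal phase ovary 2 (limma adjusted p between 0.0599 and 0.108). SLC25A46, a protein of the outer membrane and the most abundant of these, was 19.4 ± 1.76 FPKM in the follicular and 20.7 ± 1.15 FPKM in the luteal phase (SD, n = 5 each), and its log2 fold change was 0.10 (95% confidence interval -0.07 to 0.26, limma adjusted p = 0.325).

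In the TOM complex and its partners, 2 of 9 tested members were higher and 1 was lower. TOMM5, a small subunit that sits beside the channel, measured 91.6, 122, 79.7, 102 and 73.97 FPKM in the follicular phase and 175, 201, 149, 217 and 178 FPKM in the luteal phase. The lowest luteal phase ovary was above the highest follicular phase ovary, and the ratio of the means was 1.96 (log2 fold change = 0.98 ± 0.14 (SE), limma adjusted p = 0.000315). TOMM7, another small subunit, was 153 ± 11.7 FPKM in the follicular and 140.3 ± 19.3 FPKM in the luteal phase (SD, n = 5 each), and its log2 fold change was -0.13 (95% confidence interval -0.35 to 0.09, limma adjusted p = 0.304). TOMM70, a receptor for carrier precursors and other hydrophobic proteins, was lower by a small and very even amount. It measured 34.96, 36.9, 35.1, 35.2 and 35.9 FPKM in the follicular phase and 28.2, 29.02, 29.5, 28.5 and 29.1 FPKM in the luteal phase (log2 fold change = -0.30 ± 0.05 (SE), limma adjusted p = 0.000789), and its SD within a phase, 0.029 on the log2 scale, was the smallest of the 60 members. The receptor TOMM20 had a log2 fold change of -0.22 (95% confidence interval -0.42 to -0.01, limma adjusted p = 0.0835) and the central receptor TOMM22 one of -0.18 (95% confidence interval -0.37 to 0.01, limma adjusted p = 0.121). Both passed only after quantile normalization among the scalings tried (-0.32 and -0.25, limma adjusted p = 0.00514 and 0.0234). TOMM40, the channel itself, had a log2 fold change of -0.15 (95% confidence interval -0.53 to 0.24, limma adjusted p = 0.525), while its less abundant paralog TOMM40L passed at 0.32 (limma adjusted p = 0.0396). That call was lost when any 1 ovary other than follicular phase ovary 2 and luteal phase ovary 3 was left out (limma adjusted p between 0.0534 and 0.0890) and with its most abundant transcript alone (0.0597).

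None of the 5 tested members of the TIM23 complex and its motor passed in limma, and 2 of the 5 had an unadjusted p under 0.05. The channel component TIMM17A had a log2 fold change of 0.26 (95% confidence interval 0.03 to 0.48, limma adjusted p = 0.0610). It passed with all ovaries brought to the same median (log2 fold change = 0.34, limma adjusted p = 0.0426), on the TPM scale (0.36, limma adjusted p = 0.0125) and without follicular phase ovary 2 (0.33, limma adjusted p = 0.0158). For TIMM17B, its paralog, the log2 fold change was 0.01 (95% confidence interval -0.22 to 0.24, limma adjusted p = 0.931). The receptor TIMM50 was at -0.08 (95% confidence interval -0.36 to 0.21, limma adjusted p = 0.653) and the motor anchor TIMM44 at -0.25 (95% confidence interval -0.50 to -0.01, limma adjusted p = 0.0853) on the same scale. TIMM21, which links the complex to TOM, had a log2 fold change of 0.16 (95% confidence interval -0.01 to 0.32, limma adjusted p = 0.117) and passed with all ovaries at the same median (0.24, limma adjusted p = 0.0317) and on the TPM scale (0.26, limma adjusted p = 0.0484).

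The TIM22 complex and the small TIM proteins had 4 of 7 members past the test, 2 in each direction. TIMM22, the channel that inserts carriers, was higher, with 6.48, 6.67, 6.68, 6.39 and 7.13 FPKM in the follicular and 9.04, 9.54, 7.91, 9.23 and 8.15 FPKM in the luteal phase and no overlap (log2 fold change = 0.39 ± 0.08 (SE), limma adjusted p = 0.00285). TIMM10B, a small TIM bound to that channel, was higher at 15.1 ± 2.54 FPKM against 10.8 ± 1.37 FPKM (SD, n = 5 each), with luteal phase ovary 3 inside the follicular range (log2 fold change = 0.47 ± 0.13 (SE), limma adjusted p = 0.0132). TIMM8B and TIMM9, chaperones of the intermembrane space, were lower. TIMM8B measured 72.6, 78.2, 64.8, 73.2 and 72.04 FPKM in the follicular phase and 46.8, 59.4, 43.4, 53.3 and 46.1 FPKM in the luteal phase (log2 fold change = -0.54 ± 0.09 (SE), limma adjusted p = 0.000804). TIMM9 measured 18.7, 18.3, 15.1, 16.1 and 17.5 FPKM in the follicular phase and 13.4, 13.9, 14.4, 12.6 and 11.9 FPKM in the luteal phase (log2 fold change = -0.37 ± 0.08 (SE), limma adjusted p = 0.00447). In both genes all 5 luteal phase ovaries were below all 5 follicular phase ovaries. TIMM10, which assembles with TIMM9, had a log2 fold change of -0.24 (95% confidence interval -0.49 to 0.01, limma adjusted p = 0.107), and it passed without follicular phase ovary 1 (-0.32, limma adjusted p = 0.0367). For TIMM13, which assembles with the TIMM8 proteins, the log2 fold change was 0.07 (95% confidence interval -0.18 to 0.32, limma adjusted p = 0.654). For TIMM8A it was -0.06 (95% confidence interval -0.62 to 0.51, limma adjusted p = 0.870).

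**Figure D2:**
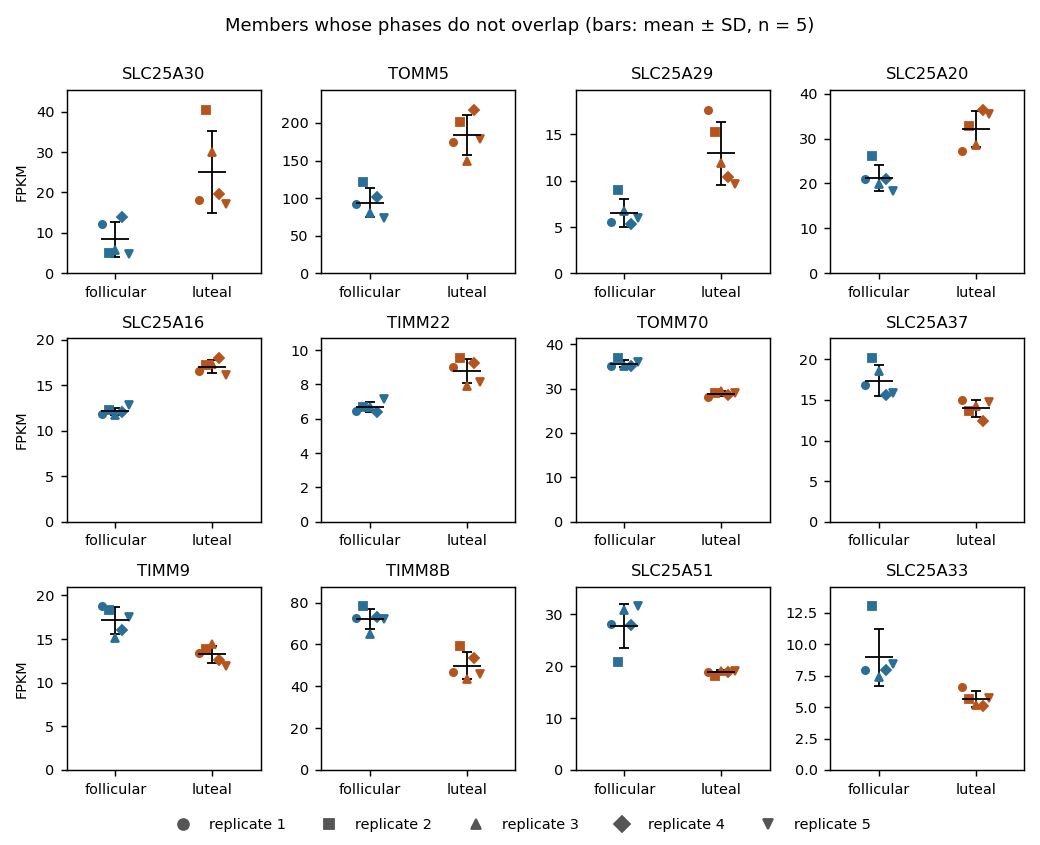
FPKM per ovary of the 12 members whose phases did not overlap, with blue symbols for follicular and orange for luteal phase ovaries, 1 symbol shape per replicate number, and bars for the mean ± SD (n = 5). The first 6 panels are higher and the last 6 lower in the luteal phase, from SLC25A30 with a log2 fold change of 1.64 to SLC25A33 with -0.63.

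Ratios between related members were compared next, because a factor common to all values of an ovary cancels in a ratio, apart from the 0.1 added to each FPKM. Other scalings were not tried for the ratios. Of 12 pairs tested, 6 differed between the phases (exact permutation of the 10 ovaries, two-sided, over all splits into 5 and 5, adjusted over the 12 pairs). Each of these 6 pairs held a gene that had passed alone, so the ratios are not independent of those calls. The share of other gene pairs that would differ was not computed. SLC25A33 over SLC25A36, the pyrimidine nucleotide carriers, had a log2 ratio of -2.32 ± 0.25 in the follicular phase and -3.10 ± 0.26 in the luteal phase (SD, n = 5 each), a difference of -0.78 ± 0.16 (SE), exact permutation p = 0.00794, adjusted p = 0.0238. This p is the smallest that 5 ovaries against 5 allow. TIMM10 over TIMM10B differed by -0.71 ± 0.15 (SE), exact permutation p = 0.00794, adjusted p = 0.0238, with ranges of 1.46 to 2.11 in the follicular and 0.81 to 1.23 in the luteal phase. TOMM40 over TOMM40L differed by -0.46 ± 0.13 (SE), exact permutation p = 0.00794, adjusted p = 0.0238, and SLC25A16 over the coenzyme A carrier SLC25A42 by 0.58 ± 0.11 (SE), exact permutation p = 0.00794, adjusted p = 0.0238. In these 4 pairs the phases did not overlap.

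SLC25A14 over SLC25A30 gave the largest difference, -1.59 ± 0.48 (SE), exact permutation p = 0.0159, adjusted p = 0.0317, with overlapping phases. SLC25A23 over SLC25A24, both ATP-Mg/phosphate carriers, differed by 0.74 ± 0.19 (SE), exact permutation p = 0.0159, adjusted p = 0.0317, again with overlap. The ratio of SLC25A14 to SLC25A30 passed without ovary 4 of either phase and that of SLC25A23 to SLC25A24 without follicular phase ovary 1 or luteal phase ovary 2, and both missed the threshold when any other ovary was left out (exact permutation adjusted p between 0.0544 and 0.0635). With 4 ovaries against 5 the smallest exact permutation p before adjustment is 0.0159, and the differences ran from -1.85 to -1.33 and from 0.66 to 0.88 over the 10 ovaries left out in turn. With the most abundant transcript of each gene alone, 3 of the 6 ratios no longer passed: SLC25A14 over SLC25A30 (-2.19, exact permutation adjusted p = 0.333), SLC25A23 over SLC25A24 (0.52, exact permutation adjusted p = 0.143) and TIMM10 over TIMM10B (-0.52, exact permutation adjusted p = 0.190). TIMM17A over TIMM17B differed by 0.25 ± 0.11 (SE), exact permutation p = 0.0397, adjusted p = 0.0680, and did not pass after adjustment. The other 5 pairs did not pass either. The ADP/ATP carriers SLC25A4 over SLC25A5 differed by 0.20 (exact permutation adjusted p = 0.234), the aspartate/glutamate carriers SLC25A12 over SLC25A13 by -0.09 (exact permutation adjusted p = 0.643) and the mitoferrins SLC25A28 over SLC25A37 by 0.20 (exact permutation adjusted p = 0.210). SLC25A25 over SLC25A24 differed by 0.51 (exact permutation adjusted p = 0.180) and TIMM8A over TIMM8B by 0.48 (exact permutation adjusted p = 0.155). The latter passed without follicular phase ovary 2 (0.68, exact permutation adjusted p = 0.0381).

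**Figure D3:**
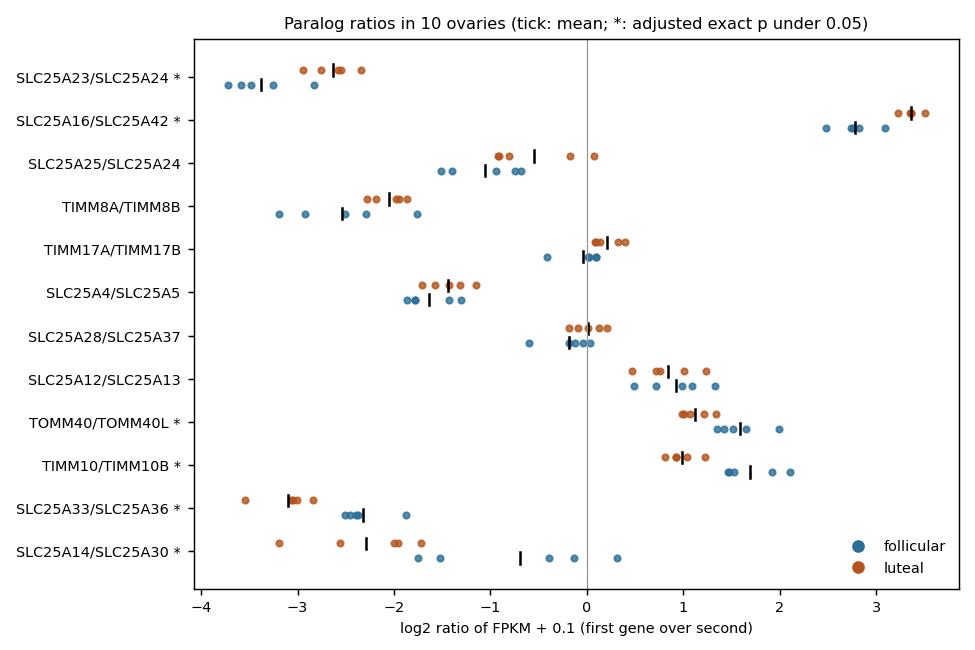
Log2 ratio of FPKM + 0.1 of the first gene over the second in each of 10 ovaries for 12 pairs of related members, with blue points for follicular and orange points for luteal phase ovaries and a black tick at each phase mean. An asterisk marks the 6 pairs with an adjusted exact p under 0.05, and in 4 of these the blue and orange points do not overlap.

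TOMM6, the last of the small TOM subunits, did not follow the phases. It measured 51.2, 69.5, 0.542, 49.7 and 0.0364 FPKM in follicular phase ovaries 1 to 5 and 55.7, 65.8, 0.0277, 0.726 and 0.360 FPKM in luteal phase ovaries 1 to 5. Follicular phase ovaries 1, 2 and 4 and luteal phase ovaries 1 and 2 were thus high, and the other 5 ovaries were below 1 FPKM (log2 fold change = -1.29 ± 2.22 (SE), limma adjusted p = 0.659). With 1 ovary left out the log2 fold change ran from -2.70 without follicular phase ovary 5 to -0.17 without luteal phase ovary 3. In the goat assembly ARS1.2, RefSeq places TOMM6 in overlap with PRICKLE4 and USP49. PRICKLE4, a planar cell polarity gene, measured 0.277, 0.266, 10.3, 0.291 and 10.8 FPKM in the follicular phase and 0.367, 0.309, 12.2, 14.5 and 12.7 FPKM in the luteal phase. It was above 10 FPKM in exactly the 5 ovaries in which TOMM6 was below 1 FPKM, and below 0.5 FPKM in the other 5. USP49 ranged from 1.88 to 2.56 FPKM in the follicular and from 1.37 to 2.77 FPKM in the luteal phase and showed no such split. How fragments were shared between the overlapping genes was not tested, so the level of TOMM6 in the 5 low ovaries is uncertain.

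**Figure D4:**
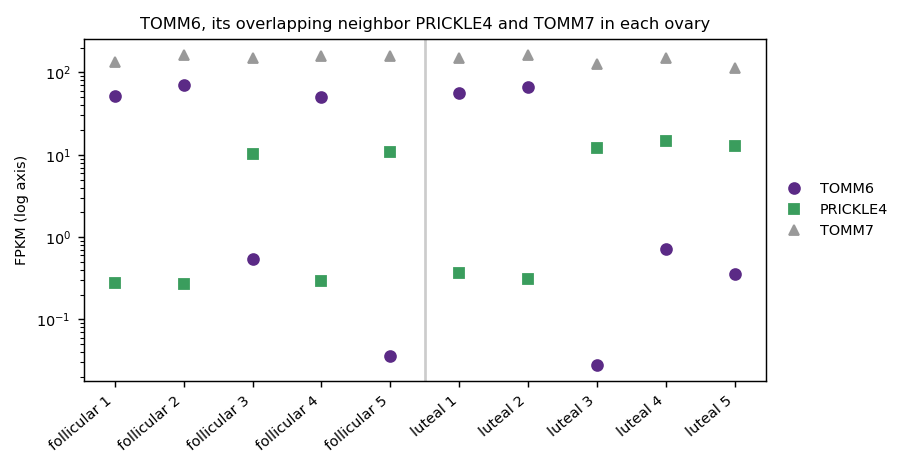
FPKM on a log axis of TOMM6, the overlapping gene PRICKLE4 and, for comparison, TOMM7 in each of 5 follicular and 5 luteal phase ovaries. TOMM6 is between 49.7 and 69.5 FPKM in 5 ovaries and at most 0.726 FPKM in the other 5, PRICKLE4 has the opposite split in every ovary, and TOMM7 stays between 113 and 163 FPKM.

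In the same annotation, 61 members lie on a numbered chromosome or the X chromosome, and 17 of them overlap another gene, 12 of them a protein-coding one. Among members that passed, SLC25A20 and SLC25A37 each overlap a gene that is not protein-coding, and SLC25A1 is not among the 61. The members that passed and overlap a protein-coding gene are given next. TIMM8B overlaps SDHD, a subunit of complex II, which was higher in the luteal phase with a log2 fold change of 0.33 (limma adjusted p = 0.0165). It also overlaps C15H11orf57, which was lower with a log2 fold change of -0.26 (limma adjusted p = 0.0118). SLC25A35 overlaps RANGRF, which was lower with a log2 fold change of -0.28 (limma adjusted p = 0.0249), the opposite direction to SLC25A35. TOMM70 overlaps LNP1, whose log2 fold change was -0.07 (limma adjusted p = 0.781). TIMM9 overlaps TOMM20L, which was not tested, and TOMM40L overlaps NR1I3, which did not exceed 0.0272 FPKM. Whether the counting used the strand of the reads is not given in the sources used here, so reads shared between such genes cannot be told apart.

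Among ovaries of a phase the members had a median SD of 0.19 on the log2 scale against 0.23 over all genes tested. After TOMM6, at 4.19, the largest were SLC25A30 at 0.65 and SLC25A31 at 0.49. Many members shared the same high or low ovary. Follicular phase ovary 2 was the highest of its phase in 33 of 60 members (55%, against 24.1% of all genes tested), and luteal phase ovary 3 was the lowest of its phase in 33 of 60 (55%, against 24.5%). The same luteal phase ovary held the lowest luteal summed FPKM of the members, 1409, and the same follicular phase ovary the highest follicular one, 1752. With these 2 ovaries left out, 24 members passed, 15 higher and 9 lower, beside 45.6% of all genes tested (16.5% higher and 29.1% lower). They were chosen after the data were seen and for their extreme values in these members, which by itself favors calls in the higher direction, so nothing is read from the gain.

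**Figure D5:**
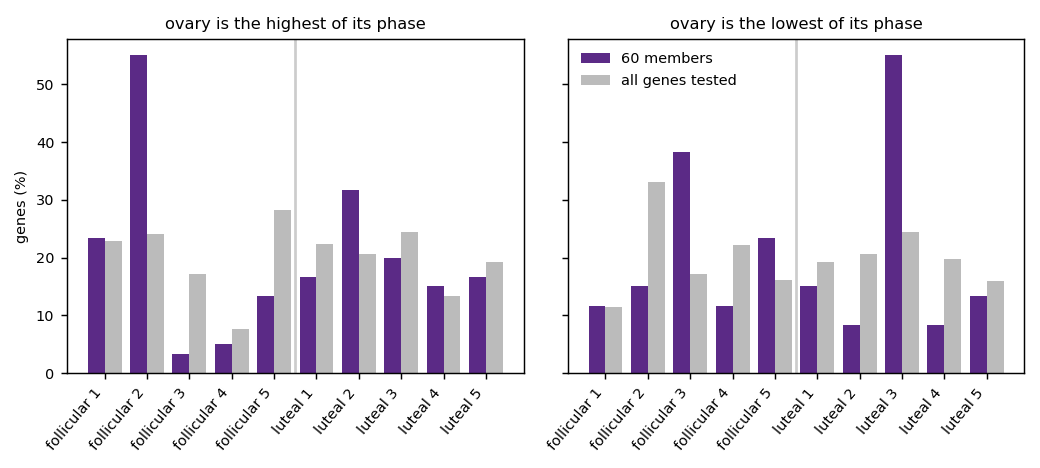
Percentage of the 60 tested members (purple) and of all genes tested (grey) for which each ovary is the highest (left) or the lowest (right) of the 5 in its phase. Follicular phase ovary 2 is the highest in 55% of members and luteal phase ovary 3 the lowest in 55%, above their shares over all genes of 24.1% and 24.5%.

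Of 121 member transcripts, 106 were tested and 15 passed, 10 higher and 5 lower, against 17.3% of all 32842 transcripts tested (7.47% higher and 9.82% lower). With all ovaries at the same median 1 transcript was lower (6.18% of all transcripts), and on the TPM scale 3 were (5.45%). All but 1 belonged to genes that passed in the same direction. The exception was TIMM10, whose transcript XM_018059065.1 was lower (log2 fold change = -1.02 ± 0.27 (SE), limma adjusted p = 0.0266), at 3.30, 4.24, 2.91, 4.39 and 5.18 FPKM in the luteal and 12.95, 8.53, 7.10, 9.84 and 4.43 FPKM in the follicular phase. The main TIMM10 transcript, XM_018059064.1, ranged from 14.3 to 31.4 FPKM in the follicular and from 20.7 to 29.5 FPKM in the luteal phase and did not pass. Both TOMM5 transcripts were higher, XM_005683882.3 by 1.03 (limma adjusted p = 0.00204) and the less abundant XM_005683883.3 by 0.62 (limma adjusted p = 0.00298). For SLC25A29, 2 of 6 tested transcripts were higher, XM_018066355.1 by 1.04 (limma adjusted p = 0.00830) and XM_018066354.1 by 1.41 (limma adjusted p = 0.0277).

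Neither SLC25A30 transcript passed alone. XM_018056765.1 measured 11.03, 3.21, 3.29, 11.7 and 0.0269 FPKM in the follicular and 11.5, 35.4, 28.4, 13.5 and 11.5 FPKM in the luteal phase, and XM_005687432.3 measured 1.24, 1.92, 2.47, 2.33 and 4.66 and 6.56, 5.01, 1.66, 6.11 and 5.52 FPKM. In follicular phase ovary 5 the more abundant transcript was nearly at 0, while the other transcript had its highest value of that phase. In all, 8 of the 20 genes that passed had no transcript that passed. For SLC25A34, SLC25A35 and TOMM40L, with 1 transcript each, gene and transcript hold the same FPKM, and the transcript's limma adjusted p was 0.0641, 0.119 and 0.0957. The others were SLC25A23, SLC25A30, SLC25A51, SLC25A22 and SLC25A37. For SLC25A51, SLC25A22 and SLC25A37, with the most abundant transcript alone the log2 fold changes were -0.36, -0.51 and -0.11 (limma adjusted p = 0.247, 0.340 and 0.643).

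The other proteins that fold, cut or assemble what the TOM and TIM complexes import were given for context. Of 30 tested genes of mitochondrial import and inner membrane organisation outside the members, 8 were higher and 3 lower in the luteal phase, 36.7% in all against 43.7% of all genes tested, and their median log2 fold change was 0.13. Without follicular phase ovary 2, 13 were higher, beside 16.4% of all genes. The matrix chaperone HSPD1 was 143 ± 29.3 FPKM in the follicular and 395 ± 64.1 FPKM in the luteal phase (SD, n = 5 each; log2 fold change = 1.47 ± 0.15 (SE), limma adjusted p = 3.30e-05). The log2 fold change was 0.96 (limma adjusted p = 7.82e-05) for the matrix protease LONP1 and 0.87 (limma adjusted p = 0.000220) for PMPCA, a subunit of the peptidase that cuts off targeting sequences. Lower in the luteal phase were CHCHD6, a component of the cristae organising complex MICOS, with a log2 fold change of -0.60 (limma adjusted p = 0.00401), and the nucleotide exchange factor GRPEL2 with one of -0.36 (limma adjusted p = 0.00441). The import motor subunit PAM16 was lower with a log2 fold change of -0.30 (limma adjusted p = 0.00640), a call that was lost on the TPM scale (-0.20, limma adjusted p = 0.0553).

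Of 22 tested genes for other mitochondrial channels and transporters, 9 passed (40.9%, against 43.7% of all genes tested), all of them higher in the luteal phase (after quantile normalization 1 gene was lower), and the median log2 fold change was 0.21. GHITM, an inner membrane protein, measured 79.6, 92.6, 70.6, 73.1 and 73.8 FPKM in the follicular phase and 177, 212, 215, 249 and 225 FPKM in the luteal phase (log2 fold change = 1.47 ± 0.10 (SE), limma adjusted p = 1.80e-06). MICU2, a regulator of the calcium uniporter, had a log2 fold change of 1.20 (limma adjusted p = 5.41e-07), and TSPO, an outer membrane protein that binds cholesterol, one of 1.18 (limma adjusted p = 6.87e-05). For each of these 3 genes the phases did not overlap.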

How the data were processed

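RNA was measured in 5 follicular phase and 5 luteal phase ovaries by paired-end sequencing after removal of ribosomal RNA, with a directional library kit. The authors used HISAT2 for alignment, StringTie for assembly and Cuffdiff for the deposited FPKM, 1 value per transcript and ovary with no pooling. The genome build is not given in the sources used here. Read counts were not used, so the depth and counting error behind each FPKM are unknown, and the spread between ovaries is the only measure of precision.

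FPKM of protein_coding transcripts was summed per gene symbol. Genes or transcripts that reached 0.1 FPKM in 5 or more of the 10 ovaries were tested on log2(FPKM + 0.1) with limma 3.58.1 (lmFit, eBayes with trend) in R 4.3.3, luteal minus follicular, two-sided, with Benjamini-Hochberg adjustment over all 15359 genes or all 32842 transcripts tested and a threshold of 0.05. Fold changes are on this scale, which understates the change of low genes. Ratios of related members were tested by exact permutation (scipy 1.17.1, Python 3.11.15) and adjusted over 12 pairs. Both procedures were tested on simulated data. Overlapping genes were taken from the RefSeq annotation of ARS1.2, for names only.

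The members, the roles and the other gene lists were chosen with earlier results of these data known. Named per role were the most abundant member, up to 3 members per direction with the largest change among the calls without overlap, the genes of each tested pair and the untested members, and per other list up to 3 calls per direction. The other called members, TOMM6 and its neighbors, and the remaining TIM23, TOM and small TIM subunits were described after their values were seen. The alternatives changed the pseudocount (1 or 0.01), the filter (none or 0.5 FPKM), the scaling (each ovary at the same median, quantile normalization or TPM), the threshold (0.01) and the model (no trend, or a replicate block), used the most abundant transcript only, limma for the ratios, and left out each ovary in turn.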

Additional observations from a re-analysis of the deposited data

Results flagged for a closer look

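In a group of 5 ovaries, 1 ovary stood apart from the other 4 by more than Dixon's 95% critical value of 0.71 in 6 of 120 groups for member genes and in 2 of 24 groups for ratios. Chance flags about 1 in 20 groups. In follicular phase ovary 2, SLC25A33 was 13.02 FPKM (the other 4 follicular phase ovaries 7.43 to 8.43), TIMM44 was 21.7 FPKM (the others 15.2 to 16.5) and TOMM20 was 104.8 FPKM (the others 74.1 to 81.7). The log2 ratio of SLC25A33 to SLC25A36 in the same ovary was -1.88 (the others -2.51 to -2.37). In luteal phase ovary 3, SLC25A1 was 27.6 FPKM (the other 4 luteal phase ovaries 43.2 to 50.4) and TOMM40 was 16.1 FPKM (the others 22.5 to 25.6). In luteal phase ovary 2, SLC25A51 was 18.1 FPKM, just under the narrow range of the others (18.8 to 19.1). In follicular phase ovary 5 the log2 ratio of TIMM17A to TIMM17B was -0.41 (the others 0.01 to 0.10). The SLC25A1, SLC25A33 and SLC25A51 calls between the phases were each kept when the ovary named here was left out.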

How the results depend on the processing

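All 20 calls of member genes kept their direction in every alternative run. The number of members that passed was 13 at a threshold of 0.01 (7 higher; 26.2% of all genes passed), 13 with the most abundant transcript only (5 lower; 32.3% of all genes), and between 17 and 22 when 1 ovary was left out (9 to 12 higher, 8 to 10 lower; 35.7% to 45.8% of all genes). Transcripts that passed were 8 at a threshold of 0.01 (7.6% of all transcripts) and between 11 and 18 with 1 ovary left out (12.5% to 17.3% of all transcripts). With 1 ovary left out, other import genes that passed were between 10 and 16 (7 to 13 higher), and other transport genes between 9 and 10. Of 12 ratios, 3 passed with the most abundant transcript only and between 4 and 5 with 1 ovary left out.

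The sources do not say whether equal replicate numbers pair the ovaries. Deviations of same-numbered ovaries from their phase mean correlated between 0.026 and 0.199 across genes. Of the 5 luteal phase ovaries, 2 correlated best with their own number, and a pairing or shared batch was not tested further. With a replicate block, 25 members passed (13 higher, 12 lower), beside 45.7% of all genes (16.5% higher, 29.2% lower). Under the block 0 ratios passed, because the smallest p that sign flips of 5 pairs allow is 0.0625.

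Other values changed sign without passing. They are listed for the called, paired and most abundant members, and for SLC25A27 and the TIM and TOM subunits described above. On a TPM scale these were the log2 fold changes of SLC25A12 (0.038), SLC25A5 (0.0041), TIMM50 (0.022) and TIMM8A (0.041), and with every ovary at the same median SLC25A12 (0.025), TIMM50 (0.0089) and TIMM8A (0.028). With the most abundant transcript only, SLC25A25 was at -0.32, the ratio of SLC25A25 to SLC25A24 at -0.10 and that of SLC25A28 to SLC25A37 at -0.0043. With 1 ovary left out, the log2 fold change ran from -0.074 to 0.10 for SLC25A13, from -0.025 to 0.13 for SLC25A14, from -0.19 to 0.034 for SLC25A5, from -0.061 to 0.068 for TIMM17B, from -0.14 to 0.042 for TIMM50 and from -0.22 to 0.16 for TIMM8A, and the ratio of SLC25A12 to SLC25A13 from -0.19 to 0.016. Outside these lists, SLC25A11 changed sign in 2 of 20 alternatives and SLC25A31 in 1 of 19, also without passing. The causes of these changes were not tested.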
